A study of Mus musculus with 8 samples.

Results

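The 4T1.2 and 67NR cell lines stand at the ends of a panel of mouse mammary carcinoma lines that are graded by how readily they spread. The comparison used 4 of the 8 RNA-seq libraries of the series, 2 of cultured 4T1.2 cells and 2 of cultured 67NR cells. The other 4 libraries, 2 each of 4T1 and 66cl4 (a line whose sample labels spell it 66c14), were used to see which end of the panel each line resembled. All 4 lines descend from mammary carcinoma of BALB/c mice and the labels name no treatment and no engineered allele for any of them. 4T1.2 is a bone-seeking derivative of 4T1, and each line is a single model, so a difference between lines is a difference between these lines and not between metastatic and non-metastatic tumours in general.

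Carcinoma cells of epithelial origin can hold on to junctions and keratins or shift towards a mesenchymal programme, in which transcription factors of the Snail, Zeb and Twist families repress epithelial genes such as E-cadherin. Tumour cells also secrete cytokines that mobilise leucocytes, factors that act on vessels, and proteases that open the matrix, and each of these has been studied as a part of metastasis. The lists of genes used here cover those programmes and several housekeeping ones.

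Libraries held between 37159840 and 66269681 reads assigned to genes, and 3 reads, the floor used for a gene that is not detected, equalled 0.0486 to 0.0819 CPM, that is, counts scaled by the normalised total of a library to parts per 1e6. Replicates of a line differed by more than sampling noise, so no pair was treated as a single library. The study's methods call the 2 libraries of a line biological replicates but do not say that they came from separate cultures, so p-values measure the spread between these libraries, which may be technical. The summed level of 14 mammary epithelial markers was 1680 to 1899 CPM in 4T1.2 and 601 to 658 CPM in 67NR. Keratin genes made up most of it, Krt8 with Krt18 in 4T1.2 and Krt8 in 67NR. Of the 14 markers, 6 had at most 3 counts in both 67NR libraries and 2 had so in 4T1.2. The summed level of 20 leucocyte markers was 5.29 to 5.30 CPM in 4T1.2 and 29.8 to 30.0 CPM in 67NR, where Lyz2, a lysozyme gene, held 22.5 to 22.7 CPM, and that of 14 endothelial markers was 48.0 to 51.3 CPM against 0.846 to 1.23 CPM, with 31.8 and 36.9 CPM of Egfl7 in 4T1.2. That of 18 muscle markers was 283 to 295 CPM in 4T1.2 and 197 to 200 CPM in 67NR. Of these 18, 10 had at most 3 counts in both 4T1.2 libraries and 8 had so in 67NR. Fewer cells of a type and less RNA per cell cannot be told apart in bulk libraries, and the part of other cells in these levels was not tested.

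The lines differed across most of the transcriptome, with 67.9% of 13924 genes called by edgeR's quasi-likelihood test. At an adjusted p under 0.05, 4698 (33.7%) rose and 4752 (34.1%) fell from 67NR to 4T1.2. A change of over 2-fold as well was found for 2197 genes (15.8%) in the higher and 2279 (16.4%) in the lower direction, and for 989 and 914 the change was over 8-fold. The libraries of the lines did not overlap for 4475 of the 4476 genes changed over 2-fold, and neither did they for 86.4% of all genes tested. Counts of list members below are read against these shares of all genes, and the median log2 fold change of all genes was -0.01.

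The genes that were near silent in 67NR and most abundant in 4T1.2 included Micu2, which encodes a gatekeeper of the mitochondrial calcium uniporter, and Ctsh, a lysosomal cysteine protease. Micu2 stood at 189 and 200 CPM in 4T1.2 but had 0 and 1 counts in 67NR, a ratio of 19106 with a 95% counting interval of 3429 to 754700. Hhip, a decoy receptor for Hedgehog ligands, reached 116 and 119 CPM against 1 count in each 67NR library. Tgfa, a ligand of the EGF receptor, reached 103 and 94.5 CPM against 3 and 1 counts. All of these were on in 4T1 and close to off in 66cl4, where Micu2 averaged 177 and 0.0332 CPM.

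In the opposite direction, Lbx1, a homeobox factor of migrating muscle precursors, stood at 130 and 138 CPM in 67NR and at 3 counts in each 4T1.2 library. Fgf10, a growth factor of mesenchyme that acts on epithelium, stood at 89.0 and 83.5 CPM in 67NR with 0 and 1 counts in 4T1.2. Kcnf1, a potassium channel subunit, and Foxd1, a forkhead factor of stromal cells, followed the same pattern, with 66cl4 on the side of 67NR. Among the most abundant transcripts, Lgals1 (galectin-1) rose from 1564 and 1482 CPM in 67NR to 8348 and 10138 CPM in 4T1.2. Its log2 fold change was 2.60 ± 0.18 (approximate SE derived from the test, adjusted p by edgeR 6.8e-07). Spp1, which encodes osteopontin, stood at 872 and 949 CPM in 4T1.2, against 3198 and 2957 CPM in 67NR, and so was lower in the bone-seeking line (log2 fold change -1.76 ± 0.16). The mitochondrial transcripts ATP6, COX2, ND1 and ND2 also passed the test, but the 4T1.2 libraries differed from each other in each, ND2 standing at 2127 and 5912 CPM. Without the second 4T1.2 library, COX2, ND1 and ND2 no longer passed, with log2 fold changes of 0.592, 0.394 and 0.924. COX2 also missed the threshold without the first 67NR library (1.035), as did ND1 without the first (0.967) or the second (1.065).

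**Figure D1:**
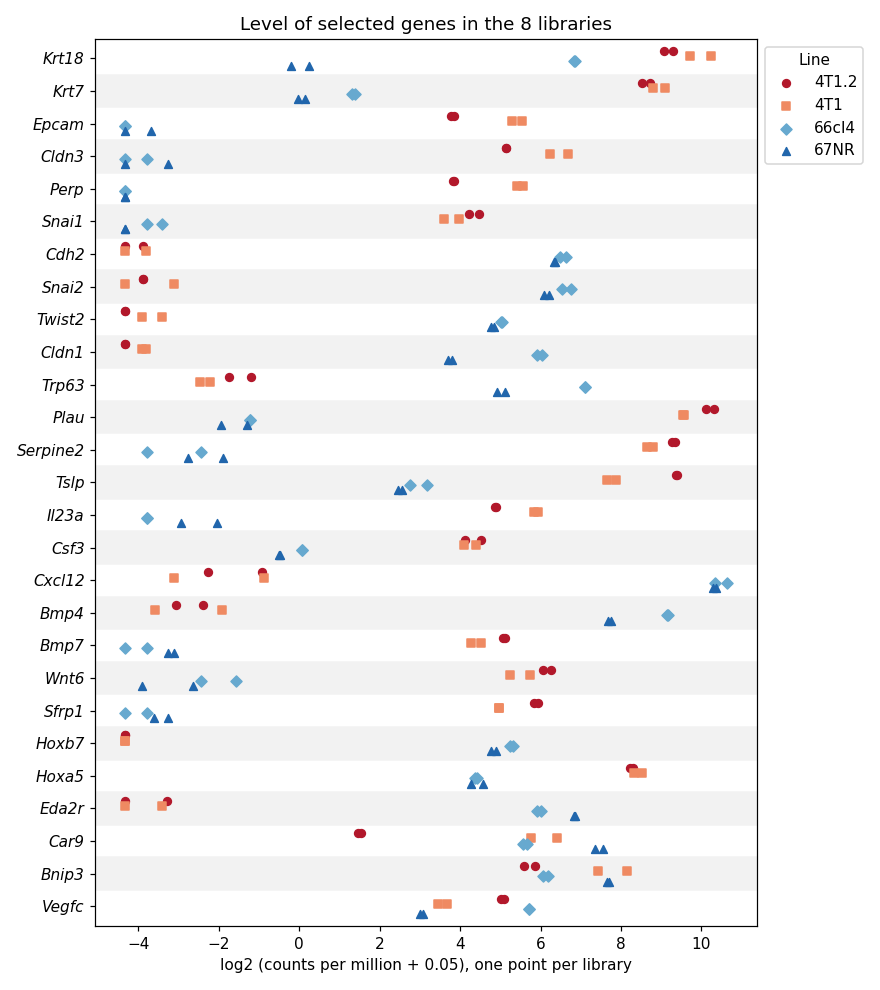
Level of 27 genes in the 8 libraries on a log2 scale of CPM plus 0.05, with 1 point per library and a colour and symbol for each line. In most rows the 4T1 points lie by those of 4T1.2 and the 66cl4 points by those of 67NR, while Krt18, Car9, Bnip3 and Vegfc depart from that order.

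Epithelial genes had the highest median of the 18 pathway lists, the marker lists aside. Of 50 members tested, 32 rose and 14 fell in 4T1.2, 32 and 12 of them over 2-fold, with a median log2 fold change of 2.01. Keratin 18, a filament protein of simple epithelia, stood at 541 and 623 CPM in 4T1.2, 845 and 1200 CPM in 4T1, 115 and 113 CPM in 66cl4, and 0.819 and 1.13 CPM in 67NR. Its log2 fold change between the extremes was 9.17 ± 0.24 (edgeR adjusted p 1.0e-09), and 66cl4 exceeded 67NR by 6.82, so that 67NR alone was almost without it. Its partner Krt8 was abundant everywhere, at 907 and 1085 CPM in 4T1.2 and 463 and 528 CPM in 67NR, and rose by only 1.01 on the log2 scale. Krt7 stood at 366 and 420 CPM in 4T1.2 against 0.928 and 1.05 CPM in 67NR.

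Junction genes followed. Cdh1, which encodes E-cadherin, reached 11.6 and 11.1 CPM in 4T1.2, against 0.0546 and 0.0973 CPM in 67NR (log2 fold change 7.09 ± 0.27, edgeR adjusted p 9.1e-09). The desmosomal component Perp had no read in either 67NR library and 14.4 and 14 CPM in 4T1.2, at least 218-fold higher. Epcam, an epithelial adhesion molecule, stood at 13.7 and 14.3 CPM against 1 and 0 counts, and the claudin gene Cldn3 at 35.2 and 35.0 CPM against 2 and 0 counts. For each of these 4 genes 4T1 was higher than 4T1.2, 4T1.2 minus 4T1 being -1.76 for Cdh1 and -1.34 for Cldn3 on the log2 scale (edgeR adjusted p 4.4e-05 and 0.00063), and 66cl4 lay with 67NR.

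The list did not move as one. Cldn1, another claudin, had no read in 4T1.2 and 13.8 and 13 CPM in 67NR, and so was lower in 4T1.2 by at least 253-fold, and it was highest in 66cl4 at 65.0 and 60.0 CPM. Trp63, which encodes the p63 factor of basal epithelium, stood at 0.387 and 0.247 CPM in 4T1.2, 34.6 and 29.9 CPM in 67NR and 137 CPM in both libraries of 66cl4. Of the 32 epithelial genes higher over 2-fold, all 32 had 4T1 on the 4T1.2 side, against 91.9% of all genes higher over 2-fold. In 28 of them 66cl4 was on the 67NR side, against 76.9%. Of the 12 lower over 2-fold, 4T1 was with 4T1.2 for 6, with 67NR for 4 and split for 2. The shares of all genes lower over 2-fold were 84.5%, 7.9% and 7.59%.

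The 250 bases before the annotated start of Epcam, Cldn3 and Cldn4 are shown because these genes were on in 4T1.2 and 4T1 and near silent in the other lines, and because Snail and Zeb factors are known to bind the E-box CACCTG. They are RefSeq sequences of GRCm38.p6 at chr17:87635729-87635978 on the plus strand, chr5:134985964-134986213 on the plus strand and chr5:134946935-134947184 on the minus strand, and capitals mark CACCTG on either strand.
Epcam: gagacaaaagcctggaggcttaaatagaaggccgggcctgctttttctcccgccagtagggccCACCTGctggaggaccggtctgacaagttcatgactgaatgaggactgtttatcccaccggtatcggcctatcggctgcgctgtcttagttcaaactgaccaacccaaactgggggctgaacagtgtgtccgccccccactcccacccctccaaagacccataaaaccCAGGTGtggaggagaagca
Cldn3: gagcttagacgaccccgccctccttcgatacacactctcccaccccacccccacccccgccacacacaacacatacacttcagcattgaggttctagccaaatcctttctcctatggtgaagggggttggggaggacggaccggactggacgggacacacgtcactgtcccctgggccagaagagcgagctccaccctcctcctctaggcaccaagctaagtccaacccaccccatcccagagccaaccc
Cldn4: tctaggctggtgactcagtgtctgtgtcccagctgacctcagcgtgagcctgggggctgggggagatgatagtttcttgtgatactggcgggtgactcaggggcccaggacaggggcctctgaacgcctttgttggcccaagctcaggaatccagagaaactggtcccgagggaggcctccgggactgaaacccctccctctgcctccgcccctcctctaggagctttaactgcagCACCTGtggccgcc
Epcam held the letters at 187 and 19 bases before the start, Cldn4 held them at 14 bases before it, and Cldn3 did not hold them in this window. Of the 10928 tested genes with such a sequence 15.1% held them. The genes shown were selected and are not a sample of the epithelial list, so their matches are not a share to compare with it. A match is a description of the letters only, and binding or repression was not tested.

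Mesenchymal genes were lower on balance, with 13 of 42 members tested higher and 20 lower in 4T1.2, 8 and 18 of them over 2-fold, and a median log2 fold change of -1.02. Cdh2, which encodes N-cadherin, stood at 81.2 and 82.6 CPM in 67NR and at 0 and 1 counts in 4T1.2, a ratio of 9316 with a counting interval of 1672 to 368020. The repressors of E-cadherin were divided between the lines. Snai2 stood at 73.4 and 68.3 CPM in 67NR against 1 count in each 4T1.2 library, and Zeb1 at 63.1 and 65.3 CPM against 0.264 and 0.370 CPM. Twist2 had no read in 4T1.2 and was at least 529-fold lower there. Snai1, in contrast, had no read in 67NR and 22.0 and 18.4 CPM in 4T1.2, at least 310-fold higher, and the forkhead gene Foxc2 was at least 153-fold higher. Vim, which encodes vimentin, was abundant in all lines and rose from 1893 and 2001 CPM in 67NR to 4804 and 6099 CPM in 4T1.2. Of the 18 genes lower over 2-fold, 16 had 4T1 with 4T1.2 and 66cl4 with 67NR, against 63.3% of all genes lower over 2-fold. Of the 8 higher genes 4 did, against 72.2% of all genes higher over 2-fold. With only the genes that had at least 10 counts in every library, which drops genes silent in any line, the median of the list was 0.02.

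**Figure D2:**
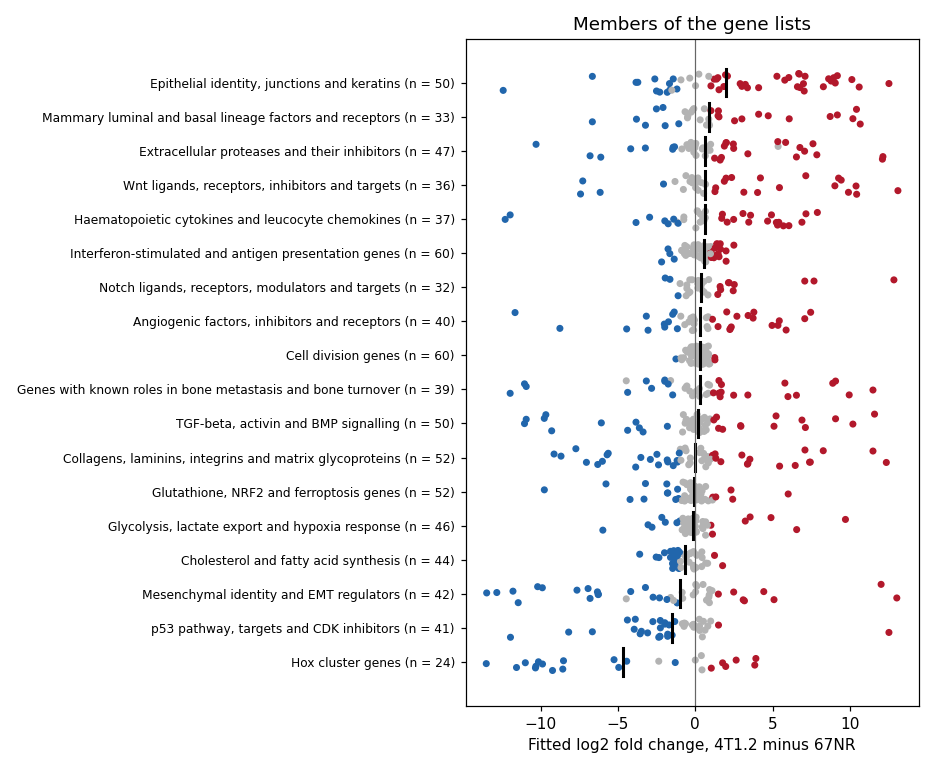
Fitted log2 fold change of 4T1.2 over 67NR for the tested members of 18 gene lists, with 1 point per gene, red for genes called higher over 2-fold, blue for genes called lower over 2-fold, grey for the rest and a black bar at the list's median. Epithelial genes have a median of 2.01 and Hox genes of -4.69, and most lists hold large changes in both directions.

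Cytokine and chemokine genes changed in both directions, 21 of 37 higher and 10 lower, 17 and 8 over 2-fold, with a median log2 fold change of 0.64. Tslp, an epithelial cytokine that acts on dendritic cells, stood at 662 and 669 CPM in 4T1.2, 202 and 235 CPM in 4T1, 6.74 and 9.06 CPM in 66cl4, and 5.40 and 5.82 CPM in 67NR (log2 fold change 6.89 ± 0.17, edgeR adjusted p 6.6e-10). Il23a, the p19 subunit of interleukin 23, stood at 29.8 and 29.2 CPM against 0.191 and 0.0810 CPM. Csf3, which encodes the granulocyte factor G-CSF, reached 22.8 and 17.2 CPM in 4T1.2, against 0.655 and 0.665 CPM in 67NR, with 4T1 at 21.0 and 17.1 CPM. Ccl2, an attractant of monocytes, rose by 5.69 on the log2 scale, and here 66cl4, at a mean of 15.9 CPM, took the 4T1.2 side. Among the other genes the study names for these lines, Fgf1, Pdgfb, Dll4, Cxcl16 and Ccl5 rose by 5.42, 3.73, 7.07, 5.39 and 3.08, with Pdgfb and Ccl5 of 66cl4 on the 4T1.2 side. Cxcl11 and Tnf were called on few reads, at most 16 and 11 counts in a 4T1.2 library. Cxcl11 lost its call with DESeq2 (log2 fold change 1.73), without the second 4T1.2 library (1.52) and without the second 67NR library (1.16), and Cxcl2 was too low to be tested.

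The largest falls in this group were in Cxcl12 and Cxcl3. Cxcl12, the ligand of CXCR4, stood at 1316 and 1242 CPM in 67NR and 1300 and 1596 CPM in 66cl4, but at 0.158 and 0.476 CPM in 4T1.2 and 0.0655 and 0.496 CPM in 4T1 (log2 fold change -11.97 ± 0.43, edgeR adjusted p 7.2e-09). Csf1, the macrophage growth factor, stood at 266 and 213 CPM in 4T1.2, against 995 and 890 CPM in 67NR. The line with more G-CSF transcript had less of that for M-CSF.

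Vessel-related genes numbered 19 higher and 15 lower of 40, with a median of 0.32. Pdgfa, Pdgfb, Fgf1, Flt1 and Egfl7 were higher in 4T1.2, Egfl7 by 7.45 on the log2 scale. Vegfa, which encodes the main endothelial growth factor, differed little, at 70.7 and 63.5 CPM against 86.1 and 93.5 CPM (log2 fold change -0.42 ± 0.10, edgeR adjusted p 0.0033). Vegfc, which acts on lymphatic endothelium, put the intermediate lines in the reverse of their usual places, at 34.3 and 32.4 CPM in 4T1.2, 10.9 and 12.7 CPM in 4T1, 52.0 and 52.2 CPM in 66cl4, and 8.40 and 7.97 CPM in 67NR. The guidance genes Slit2 and Sema3a were lower in 4T1.2, Sema3a at 1.11 and 0.847 CPM against 420 and 426 CPM.

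Of 47 proteases and inhibitors, 25 rose and 12 fell, 18 and 8 over 2-fold. Plau, which encodes urokinase, had the largest change of all genes with at least 10 counts in each of the 4 libraries. It stood at 1280 and 1108 CPM in 4T1.2, 744 and 756 CPM in 4T1, 0.376 and 0.379 CPM in 66cl4, and 0.355 and 0.211 CPM in 67NR (log2 fold change 12.12 ± 0.19, edgeR adjusted p 1.7e-10). Serpine2, which encodes a serpin that inhibits urokinase, rose alongside it, from 0.218 and 0.0973 CPM to 616 and 650 CPM. Mmp9, a gelatinase, reached 216 and 203 CPM in 4T1.2, against 2.43 and 2.14 CPM in 67NR, and was lower still in 66cl4, by 2.71 on the log2 scale against 67NR. Adamts5, an aggrecanase, stood at 47.3 and 47.2 CPM in 67NR with 2 counts in each 4T1.2 library.

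Matrix genes were split evenly, 25 higher and 25 lower of 52, with a median of -0.03. Lama4, a laminin chain, had no read in 67NR and was higher in 4T1.2 by at least 194-fold, while Col6a2, a collagen VI chain, fell by 7.72 on the log2 scale. Among 39 genes of bone metastasis and bone turnover, 20 rose and 11 fell. Itgb3, a subunit of the vitronectin receptor, stood at 38.5 and 33.4 CPM in 4T1.2 against 1 and 0 counts in 67NR, and all 10 genes of the list that were lower over 2-fold had 4T1 with 4T1.2 and 66cl4 with 67NR, against 63.3% of all genes lower over 2-fold. Of the 15 higher over 2-fold 9 showed this placing, against 72.2% of all genes higher over 2-fold. Another 4 had both lines with 4T1.2, against 13.7%.

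Of 50 genes of TGF-beta and BMP signalling, 22 rose and 18 fell, and the BMP ligands and inhibitors named here lay on both sides. Bmp4 stood at 216 and 206 CPM in 67NR and 577 and 570 CPM in 66cl4, against 0.0704 and 0.141 CPM in 4T1.2, and its secreted inhibitor Grem1 stood at 65.7 and 55.9 CPM in 67NR with 0 and 3 counts in 4T1.2. Bmp7 was instead at 34.4 and 33.2 CPM in 4T1.2 and 0.0546 and 0.0648 CPM in 67NR, and the inhibitor Chrd (chordin) was higher in 4T1.2 by at least 114-fold. The Smad genes 2, 3, 4 and 7 did not pass the test.

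Wnt genes leaned towards 4T1.2, with 21 of 36 higher and 7 lower, 17 and 4 over 2-fold, and a median of 0.64. Ligands, receptors and an inhibitor were among them. Wnt6 stood at 66.2 and 76.6 CPM against 4 and 1 counts, Wnt7b at 329 and 355 CPM against 67.0 and 67.8 CPM, the receptor Fzd3 at 21.0 and 21.5 CPM against no read (at least 326-fold higher), and the inhibitor Sfrp1 at 61.4 and 56.9 CPM against 2 counts in each library. Axin2, a feedback target of the canonical pathway, was lower in 4T1.2, with 6 and 0 counts against 8.62 and 8.53 CPM. All 17 genes higher over 2-fold had 4T1 with 4T1.2, against 91.9% of all genes higher over 2-fold. In 12 of them 66cl4 was with 67NR, against 76.9%. Of 32 Notch genes 15 rose and 8 fell, among them the ligand Dll1, at least 272-fold higher in 4T1.2, and the receptor Notch2, with a log2 fold change of -1.64.

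Hox genes, which record position along the body axis, divided by cluster. Of 24 tested, 7 rose and 14 fell. All that rose lay in the Hoxa cluster, where Hoxa5 stood at 296 and 317 CPM in 4T1.2 and 19.2 and 23.6 CPM in 67NR. All that fell belonged to the Hoxb, Hoxc or Hoxd clusters, and Hoxb7, at 27.4 and 29.6 CPM in 67NR, had no read in either library of 4T1.2 or 4T1, which makes it at least 539-fold lower in 4T1.2 than in 67NR. With at least 10 counts required in every library, which drops genes silent in any line, 1 gene of the list remained lower over 2-fold. The median then moved from -4.69 to 1.02.

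Genes of the p53 pathway were mostly lower in 4T1.2, 26 of 41 against 9 higher, 22 and 2 over 2-fold, with a median of -1.5. Trp53 itself stood at 52.7 and 39.1 CPM in 4T1.2, against 232 and 241 CPM in 67NR (log2 fold change -2.37 ± 0.16, edgeR adjusted p 7.6e-07). Cdkn1a, the p21 inhibitor of cell division, stood at 21.2 and 21.3 CPM against 437 and 455 CPM, and Ccng1 and Mdm2, both p53 targets, fell by 3.57 and 1.5. Eda2r, a death receptor that p53 induces, had 0 and 3 counts in 4T1.2 and stood at 115 and 113 CPM in 67NR. Perp and Rrm2b, also p53 targets, were higher. 66cl4 lay with 67NR for 16 of the 22 genes lower over 2-fold, close to the 73.1% of all genes lower over 2-fold. The 4T1 line lay with 4T1.2 for all 22, against 84.5%. Cell division genes changed little, with 30 of 60 higher and 5 lower but 2 and 1 over 2-fold, and Mki67, a proliferation marker, at 468 and 510 CPM against 560 and 644 CPM, did not pass (edgeR adjusted p 0.49), although it did when the 4 libraries were fitted alone, with a log2 fold change of -0.30.

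Genes for making cholesterol and fatty acids were lower in 4T1.2, 29 of 44 against 6 higher, 19 and 2 over 2-fold, with a median of -0.68. Mvd, an enzyme of the mevalonate pathway, stood at 6.18 and 5.96 CPM in 4T1.2 and 73.4 and 73.6 CPM in 67NR (log2 fold change -3.60 ± 0.10, edgeR adjusted p 1.8e-09). Hmgcs1, Fdps and Dhcr7 fell by 1.61, 1.99 and 2.35, and Srebf2, the factor that drives them, fell by 0.96. 66cl4 was on the 67NR side for 17 of the 19 genes lower over 2-fold, against 73.1% of all genes lower over 2-fold. But 4T1 was on the 4T1.2 side for 10, against 84.5%.

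The hypoxia and glycolysis list had a median of -0.14, with 15 of 46 higher and 17 lower, 7 in each direction over 2-fold. Car12, a carbonic anhydrase, Ldhb, a lactate dehydrogenase subunit, and Pfkm, a phosphofructokinase, were higher in 4T1.2 by 9.70, 6.55 and 4.89 on the log2 scale. 4T1 was on the 4T1.2 side for 6 of the 7 higher genes and for 1 of the 7 lower, against 91.9% and 84.5% of all genes changed over 2-fold in those directions. Car9, a carbonic anhydrase induced by hypoxia, stood at 2.87 and 2.68 CPM in 4T1.2, 54.5 and 85.5 CPM in 4T1, 47.6 and 50.3 CPM in 66cl4, and 164 and 186 CPM in 67NR. Bnip3, a mitophagy receptor induced by hypoxia, stood at 48.1 and 58.3 CPM in 4T1.2, against 171 and 282 CPM in 4T1, and the log2 fold change of 4T1.2 against 4T1 was -2.09 (edgeR adjusted p 0.00013). The density of the cultures was not given in the sources used here, and its part was not tested. Glutathione and ferroptosis genes had a median of -0.09, with 13 of 52 higher and 20 lower, among them the cystine carrier Slc7a11, higher by 2.30 in 4T1.2, and the iron exporter Slc40a1, with 1 and 0 counts against 9.80 and 9.69 CPM.

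Interferon and antigen presentation genes were higher more often than lower in 4T1.2, 33 and 11 of 60, but the changes were small, 15 and 4 over 2-fold, with a median of 0.58. B2m, the light chain of class I molecules, reached 1441 and 1670 CPM in 4T1.2, against 874 and 817 CPM in 67NR, while Tap1, which loads peptides on to them, was lower in 4T1.2, with a log2 fold change of -1.37. The 66cl4 line was often unlike 67NR here. Of the 15 genes higher over 2-fold, 66cl4 was on the 67NR side for 4, against 76.9% of all genes higher over 2-fold. Oasl2 stood at 31.3 and 33.9 CPM in 4T1.2, 13.4 and 16 CPM in 4T1, 136 and 98.7 CPM in 66cl4, and 13 and 10.7 CPM in 67NR. Lineage factors of the mammary gland, finally, numbered 19 higher and 9 lower of 33, with the luminal factor Foxa1, which had no read in 67NR, at least 50.9-fold higher and Esr1, the oestrogen receptor, lower with a log2 fold change of -1.95.

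For a gene changed over 2-fold, a line was placed with 4T1.2 or with 67NR when both of its libraries lay on that side of the midpoint of their mean log2 CPM. Of the 2197 genes higher in 4T1.2, 1586 had 4T1 with 4T1.2 and 66cl4 with 67NR, 301 had both lines with 4T1.2, 42 had both with 67NR and 19 had them crossed. Of the 2279 lower genes the numbers were 1443, 321, 109 and 54, and the rest were split between replicates. A strict order of 4T1.2, 4T1, 66cl4 and 67NR with no overlap of libraries held for 271 of the 2197 higher genes and its reverse for 259 of the 2279 lower. Other orders of the lines were not counted, so these numbers have no share to be read against.

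Genes in which 67NR stood alone included Atg9b, an autophagy gene, at 103 and 141 CPM in 67NR and between 0.617 and 4.75 CPM in the other 6 libraries. Genes with 4T1 and 66cl4 both on the 67NR side of the midpoint included Zfp503, which encodes a zinc finger repressor. Zfp503 stood at 346 and 329 CPM in 4T1.2 and 72.4 and 68.4 CPM in its parent line 4T1. It stood at 58.0 and 65.8 CPM in 66cl4 and 18.8 and 20.7 CPM in 67NR, so 4T1 and 66cl4 lay between the ends. Mxra8, a surface protein of the matrix, stood at 3.01 and 2.43 CPM in 4T1.2, against 34.4 and 35.3 CPM in 4T1, with 153 and 158 CPM in 67NR.

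**Figure D3:**
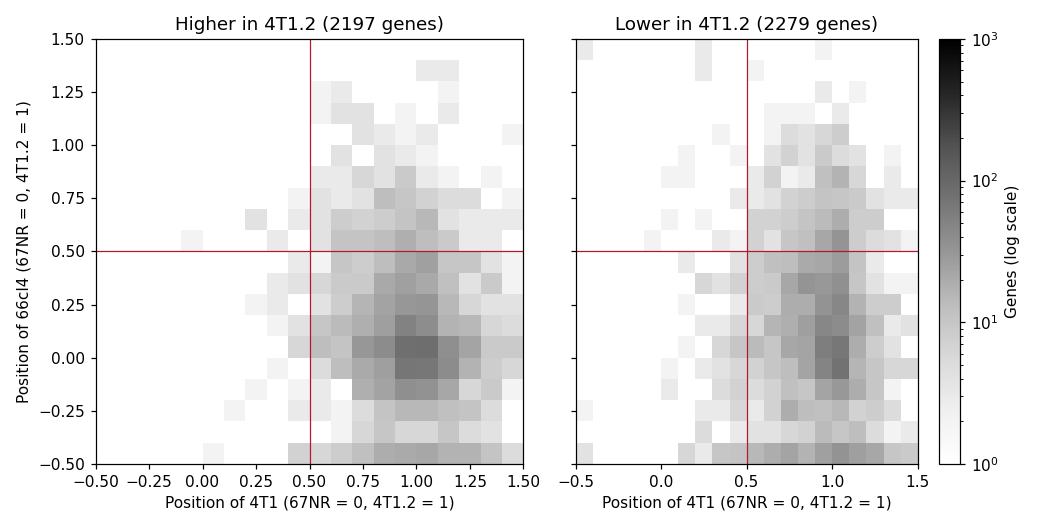
Position of 4T1 (horizontal) and 66cl4 (vertical) between 67NR at 0 and 4T1.2 at 1 on the log2 CPM scale, for 2197 genes higher and 2279 genes lower in 4T1.2, with values beyond the axes drawn at their ends, shade for the number of genes on a log scale and red lines at the midpoint. The densest squares in both panels lie at 1 for 4T1 and 0 for 66cl4.

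On/off genes, with at most 3 counts in each library of one line and a mean of at least 1 CPM in the other, numbered 308 present in 4T1.2 and 270 present in 67NR. In 4T1, 275 of the 308 averaged at least 1 CPM, and 221 of the 270 had at most 3 counts in both libraries. In 66cl4, 241 of the 308 had at most 3 counts and 193 of the 270 averaged at least 1 CPM. Some were neighbours on a chromosome, with starts at most 500 kb apart and no gene expressed in both lines between them. There were 14 such runs of 30 genes present in 4T1.2 and 22 runs of 58 genes present in 67NR. The longest held 8 genes of the Hoxb cluster on chromosome 11, Hoxb13, Hoxb9, Hoxb8, Hoxb7, Hoxb6, Hoxb5, Hoxb3 and Hoxb4, with at most 3 counts each in the libraries of 4T1.2. Six3os1, Six3 and Six2 on chromosome 17 formed another, Six3 at a mean of 43.0 CPM in 67NR and 60.9 CPM in 66cl4, although reads of Six3 and of its antisense partner Six3os1 cannot be told apart without the strand. Runs present in 4T1.2 included Cldn4 with Cldn3, and Gata4, a GATA factor at a mean of 14 CPM, with Fam167a on chromosome 14. Runs of near-identical genes, such as those of the Ces, Cd300ld and Rhox4 families, are uncertain, because reads can be split among the copies. The same strand limit holds for other runs of genes with overlapping coordinates. Among them are Ntng2 with 6530402F18Rik, Dnase2b with Uox, Cfap74 with 5830444B04Rik and Soga3 with 9330159F19Rik.

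Whole chromosomes leaned to one side. The median change of the genes of a chromosome, less that of all genes, was highest for chromosome 14 (0.62 on the log2 scale, 480 genes) and lowest for chromosome 3 (-0.61, 668 genes), with chromosome 2 at 0.38 and chromosome 8 at -0.40. On chromosome 3 the shifts of 4T1 and 66cl4 against 67NR were -0.54 and -0.59, and on chromosome 8 they were -0.39 and -0.30, so that the other 3 lines all lay below 67NR there. On chromosome 14 the shifts were 0.41 for 4T1 and near 0 for 66cl4. Chromosome 2 was 0.10 for 4T1 and 0.05 for 66cl4, so the shift there was that of 4T1.2. All 13 stretches of 10 Mb on chromosome 8 with at least 10 genes, and 14 of 16 on chromosome 3, lay below the median of all genes. So did all 15 on chromosome 7 and all 9 on chromosome 17, where the shifts of 4T1.2 were smaller, at -0.19 and -0.16. These contrasts share the 67NR libraries, and DNA copy number was not measured.

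**Figure D4:**
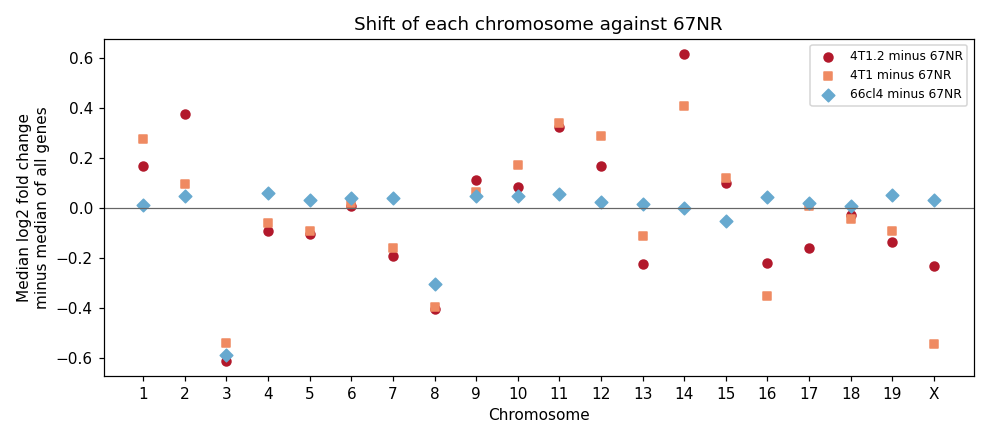
Median log2 fold change of the genes of each chromosome minus the median of all genes, against 67NR, with a symbol for each of 4T1.2, 4T1 and 66cl4. All 3 lines lie below 0 on chromosomes 3 and 8, and 4T1.2 is highest on chromosome 14 at 0.62.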

How the data were processed

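RNA from cultured cells (100 ng per library, TruSeq RNA kit per the methods) was sequenced by the authors, who aligned reads to mm10 and deposited counts per gene from featureCounts, which the submitters' processing notes name. The strand setting was not given in the sources used here, so overlapping genes may share reads. The count matrix held 27179 gene identifiers, of which 92.99% matched a RefSeq table of GRCm38.p6. Ribosomal, predicted and unmatched genes were removed after filterByExpr, as in the study, leaving 13924 of 15269. Counts were fitted with edgeR 4.0.16 (R 4.3.3) with TMM scaling and a mean per line over all 8 libraries, and p-values were adjusted by Benjamini-Hochberg over all genes tested. On simulated counts for 4T1.2 against 67NR with 13924 genes, 99 of 100 genes changed 2-fold and 100 of 100 changed 4-fold were recovered, with 10 false calls. Only 200 genes were changed there, equally in both directions, all above a mean of 1 CPM and with the trended spread. The check therefore does not cover near-silent genes or changes across most of the transcriptome. Values after ± are approximate SEs, the log2 fold change divided by the square root of the quasi-likelihood F. For genes near silent in a line they can be smaller than counting error and overstate precision. Folds against a line with no read used 3 counts per library, and ratios with few counts carry exact binomial 95% intervals, which cover counting error only.

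The comparison, the gene lists and the members were chosen with earlier results of these data known. Genes were named by size of change, level, list and position: the 8 most abundant on/off genes and the 8 largest changes in each direction, the 6 largest RPKM differences, 9 genes that the study names, 3 per list and direction, 3 per combination of sides, and runs of neighbours. Other members named, among them Cdh1, Zeb1, Trp53, Cdkn1a, Mmp9, Vegfa and Mki67, were chosen after their values were seen. A result that the naming rule gave is not reported here. Planned motif shares were void, since 56.2% of the epithelial genes higher in 4T1.2 had a promoter sequence. Alternatives covered scaling, filters, tests (DESeq2 1.42.0, limma 3.58.1), depth and each library left out.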

Additional observations from a re-analysis of the deposited data

How the results depend on the processing

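With 2 libraries per line, each gene has 4 residual degrees of freedom shared by all lines. The test adds to them by borrowing the spread of other genes, so the calls also rest on that borrowing. Requiring at least 10 counts in every library left 1154 genes higher and 1279 lower over 2-fold, in place of 2197 and 2279. This requirement takes out every gene near silent in any line, on/off genes included. Lower counts and shifted medians are therefore partly built into it. Under that filter the members over 2-fold were 15 higher and 3 lower for epithelial genes, 5 and 7 for mesenchymal genes, 6 and 5 for cytokines, 9 and 5 for bone genes, 11 and 5 for proteases, 7 and 9 for matrix genes, 7 and 3 for TGF-beta and BMP genes, 8 and 1 for Wnt genes and 6 and 4 for lineage factors. It left 6 higher Notch genes, 4 higher hypoxia and glycolysis genes, 1 higher p53 gene and 1 lower Hox gene. Medians changed sign under it for mesenchymal (0.018), angiogenic (-0.093), matrix (0.26) and Hox genes (1.023), and the matrix median, near 0 throughout, was 0.249 with libraries thinned to the smallest total and -0.13 to 0.114 with each library left out. Testing against a 2-fold change called 1748 genes higher and 1682 lower, with 8 interferon genes, 1 cholesterol gene and 3 redox genes higher. With no filter on low counts 5 Notch genes were lower over 2-fold. Counting sides over all genes at adjusted p under 0.05 gave, for higher genes, 2715 with 4T1 by 4T1.2 and 66cl4 by 67NR, 710 with both by 4T1.2, 251 with both by 67NR and 157 crossed, and for lower genes 2544, 887, 240 and 149. With the middle part of the distance set aside in place of a midpoint, both lines lay by 67NR for 25 higher and 65 lower genes. At 5 CPM in place of 1 CPM there were 162 and 129 on/off genes, in 6 runs of 12 genes and 7 runs of 20 genes.

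Leaving out each library in turn gave 3967 to 4924 genes higher and 3949 to 5061 lower. For genes higher over 2-fold it gave 18 to 37 crossed and 37 to 75 with both lines by 67NR, and for lower genes 88 to 172 with both by 67NR, the upper ends without a 4T1 library. Cell division genes lower over 2-fold numbered 1 to 2, with 2 without the second 4T1.2 library. No label says that a replicate number marks a shared batch. Deviations of same-numbered libraries correlated at 0.15 between 4T1.2 and 67NR, 0.66 between 4T1.2 and 4T1 and 0.28 between 4T1 and 67NR, but at -0.32, -0.14 and -0.085 in the pairs with 66cl4, so the numbers were not taken as pairs. These correlations cannot show whether libraries shared a batch under another numbering, which was not tested. With the replicate number as a block 4825 genes were higher and 4836 lower. Of 282 named genes followed over 22 alternatives, 25 crossed the threshold in at least 1, among them Cxcl11, COX2, ND1 and ND2. The motif shares with a 100-base window were not run, because the check was void. The cause of these changes was not tested beyond what each alternative removes.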
